A study of Homo sapiens with 6 samples.

Results

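The genes described here encode 3 signalling systems that tell cells and growing axons where to go: Eph receptors with their ephrin ligands, semaphorins with their plexin and neuropilin receptors, and Slits with their Robo receptors. They were taken by symbol, as all protein-coding genes of those families in the raw count table, which gave 60 of its 60107 gene IDs. The set holds 9 EPHA and 5 EPHB receptors, 5 EFNA and 3 EFNB ephrins, 20 semaphorins of classes 3 to 7, 9 plexins, 2 neuropilins, 3 Slits and 4 Robos. RNA came from H9 cells, an established line of human embryonic stem cells, at day 9 of a protocol that drives them toward nephron progenitor cells, the embryonic cells that build the kidney's filtering units. In 1 group of 3 libraries the medium was complete and held glutamine. The other group of 3 went without glutamine from day 0 to day 9. All 6 libraries share the cell line, the protocol and the day, and the labels name no genetic change.

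Ephs are receptor tyrosine kinases whose ligands, the ephrins, sit on the surface of neighbouring cells, so the pair signals at cell contacts, often in both directions. Semaphorins are secreted or membrane-bound cues. Class 3 members are secreted and mostly act through neuropilins, which hold the ligand, and plexins, which signal to the cytoskeleton. Slits are secreted and bind Robo receptors. In the embryonic kidney Slit2 and Robo2 are known for limiting where the ureteric bud, the source of the collecting ducts, grows out.

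The libraries held 78220507 to 84746566 counts. Replicate 1 with glutamine stood apart from its group: its log2 CPM (counts scaled to a common library size) correlated across genes at 0.984 with both other libraries with glutamine and at 0.995 to 0.996 with the 3 without. The labels cannot settle whether that library was exchanged or mislabelled, and this doubt touches every mean with glutamine and every fold change over all 6 libraries. Results are therefore given with all libraries and, for the genes described by library, without that one. The group labels rest on the column heading that each sample's description states, since the headings themselves read D0 and D9. The labels do not say that replicates came from separate cultures, so p-values measure the spread between these samples, which may be technical. All 10 nephron progenitor markers checked passed 1 CPM in some library, HOXD11 in the libraries without glutamine alone. The 6 markers of nephric duct and early nephron summed to 817, 209 and 181 CPM across replicates 1, 2 and 3 with glutamine, and to 1146, 944 and 795 without it, none of them at 0. Replicate 1 with glutamine sat with the other group there as in many genes below. PAX8 made up most of each sum, at 649, 194 and 167 CPM with glutamine and 848, 680 and 587 without. Of the 6 markers, 4 were higher without glutamine with no overlap and 0 lower. RET overlapped, at 7.92, 3.84 and 2.55 CPM with glutamine and 3.80, 3.61 and 4.11 without. The 6 neural markers, checked because guidance genes are active in neurons, summed to 80.5, 46.5 and 44.7 CPM with glutamine and 73.6, 69.5 and 93.6 without. DCX, which made up most of that sum in replicate 1 with glutamine and in the 3 libraries without, was at 63.4, 18.4 and 19.2 CPM with glutamine and 51.0, 49.1 and 75.8 without, PAX6 was lower without glutamine with no overlap (3.33 to 4.19 CPM with, 2.65 to 3.12 without), and SOX2 ran from 11.6 to 22.6 CPM with and from 11.9 to 17.1 without. TUBB3 was higher without glutamine with no overlap, at 1.49, 1.02 and 0.904 CPM with glutamine and 2.03, 2.49 and 2.37 without. SOX1 and ELAVL3 were under 1 CPM in every library. Of the 4 neural crest markers SOX10 was at 0 in all libraries, and FOXD3, TFAP2A and TFAP2B were between 0.651 and 6.77 CPM. The part of these markers in the results was not tested. These are bulk libraries, so fewer cells of a type and less RNA per cell cannot be told apart.

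Most guidance genes were clearly expressed. The median member had 47.0 CPM over the 6 libraries, and the median of all genes tested was 6.68 CPM. The members are all protein-coding, whereas the genes tested were of any type, and these CPM are not divided by gene length. A single member, EPHA10, a kinase-dead Eph receptor, was too low to test, with 0 to 8 counts in a library. To compare genes with each other, CPM was divided by the length of each gene's annotated exons in kb. On that scale EFNB1, a transmembrane ephrin, had the highest mean level over the 6 libraries, 52.9 CPM per kb, followed by the Slit receptor ROBO1 at 43.9, the plexin PLXNB2 at 40.2, the neuropilin NRP1 at 34.3 and the secreted semaphorin SEMA3C at 31.8. The order of these leaders differed between groups. With glutamine ROBO1 led at 56.3 ± 17.7 CPM per kb and SEMA3C followed at 48.4 ± 28.4 (SD, n = 3), whereas without glutamine EFNB1 led at 68.5 ± 10.3 and PLXNB2 followed at 43.8 ± 5.19. Within the libraries with glutamine, ROBO1 was at 35.9, 67.8 and 65.1 and SEMA3C at 15.6, 64.7 and 64.8 CPM per kb across replicates 1, 2 and 3. ROBO1 was thus the higher in each, by little in replicates 2 and 3, and the order was not tested. Both SDs are large because replicate 1 was low. EPHA4, which binds ephrins of both classes, led the A-class receptors at 22.1 CPM per kb, EPHB3 the B-class at 21.1, EFNA4 the GPI-anchored A-class ephrins at 16.5, and SLIT1 the Slits at 11.4. EPHB3 was above EPHB4 with glutamine (22.2 ± 0.85 and 18.9 ± 0.737 CPM per kb) and below it without (19.9 ± 0.811 and 22 ± 0.921, SD, n = 3), with no shared values between the genes in either group. These orders rest on the length used: with the longest transcript as length, NRP1 led all members over the 6 libraries (67.2 CPM per kb), ahead of ROBO1 (63.6) and EFNB1 (52.9), EPHB4 led EPHB3 and SLIT2 led SLIT1. At the other end, EPHA5, ROBO4, PLXNB3, EPHA8, SEMA3E, EPHA6 and PLXNC1 averaged from 0.0484 (EPHA5) to 0.468 (PLXNC1) CPM per kb.

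**Figure D1:**
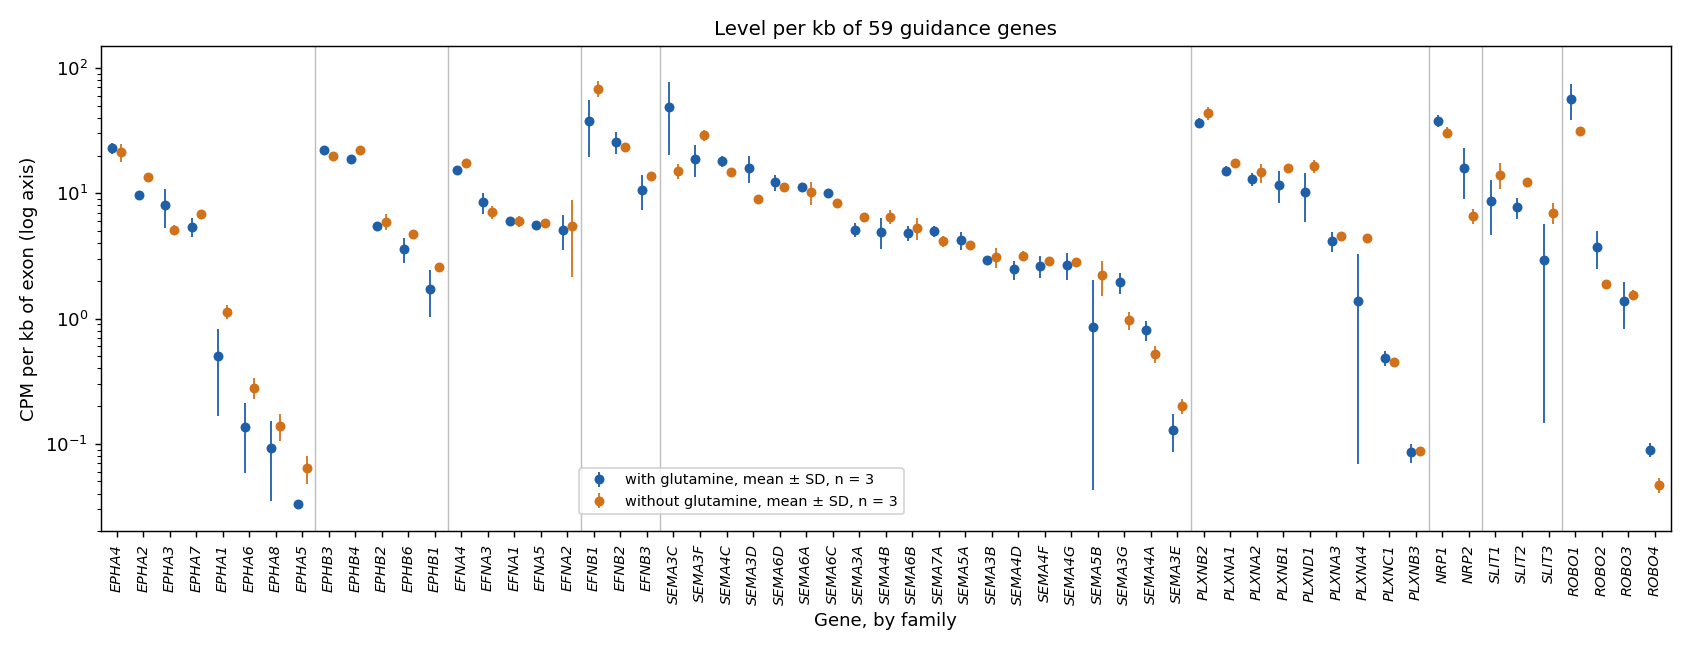
Level of each tested guidance gene in CPM per kb of exon on a log axis, by family, as group mean ± SD (n = 3 libraries). EFNB1, PLXNB2, NRP1, ROBO1 and SEMA3C lie at the top, and lower bars that would reach 0 (PLXNA4 and SEMA5B with glutamine) are drawn short.

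Without glutamine, the means of SLIT2 and other ligands and receptors such as EPHA2, EFNB1 and SEMA3F were higher, and those of ROBO1, ROBO2, NRP2, SEMA3C, SEMA3D and SEMA3G were lower. Of these genes SEMA3C alone had groups that overlapped. No member passed the adjusted threshold with all 6 libraries. With edgeR's quasi-likelihood test, 0 of the 59 members tested had a Benjamini-Hochberg adjusted p under 0.05, where 0.00442% of all 22613 genes did. At an unadjusted p under 0.05 there were 29 members, 49.2% of them against 29.7% of all genes, with 17 higher without glutamine (14.7% of all genes) and 12 lower (15.0%). The balance depended on the scaling: upper quartile scaling gave 9 higher and 14 lower, and library size alone gave 11 and 12. It also depended on single libraries. Leaving out replicate 1, 2 or 3 with glutamine gave 31 higher and 16 lower, 4 and 9, or 5 and 9. Leaving out replicate 1, 2 or 3 without glutamine gave 8 and 12, 10 and 8, or 8 and 11. At an adjusted p under 0.1 there were 14 members (14.5% of all genes), 5 higher (7.3% of all genes) and 9 lower (7.23%), and none of the 14 was left when any library other than replicate 1 with glutamine was left out. The 3 libraries without glutamine lay wholly above the 3 with it for 12 members and wholly below for 10, beside 17.3% and 16.9% of all genes. The share of members that did not overlap, 37.3%, is close to that over all genes, 34.2%.

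DESeq2, the alternative test, gave an adjusted p under 0.05 to 14 of 58 members, beside 14.0% of all genes to which it gave a value, with 7 higher (7.54% of all genes) and 7 lower (6.44%). The higher ones were EPHA1, EPHA2, EPHA6, EFNB1, SEMA3F, PLXND1 and SLIT2, and the lower ones SEMA3C, SEMA3D, SEMA3G, SEMA4A, NRP2, ROBO1 and ROBO2. Without replicate 1 with glutamine, edgeR called 45 of 59 members (76.3%), 29 higher and 16 lower, beside 41.3% of all genes (22.3% higher and 19.0% lower). The members had a higher median level than all genes, 47.0 against 6.68 CPM, and the part of level and of gene type in these shares was not tested. In that fit 34 members lay wholly above and 17 wholly below the libraries with glutamine (32.3% and 31.1% of all genes). It compares 2 libraries with 3. The library left out was picked because its values in these same data lay near the other group. Dropping it therefore tends to widen the gap between groups and narrow the spread within them. The common dispersion, edgeR's measure of spread between replicates, fell from 0.0408 to 0.0083. P-values and calls from this fit, above and below, cannot be read as ordinary evidence, since they rest on removing that library. The median log2 fold change of the members was 0.147 with all libraries and 0.253 without that one, and that of all genes 0.0012 and 0.0078. The median size of the change, regardless of direction, was 0.345 for the members and 0.252 for all genes.

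**Figure D2:**
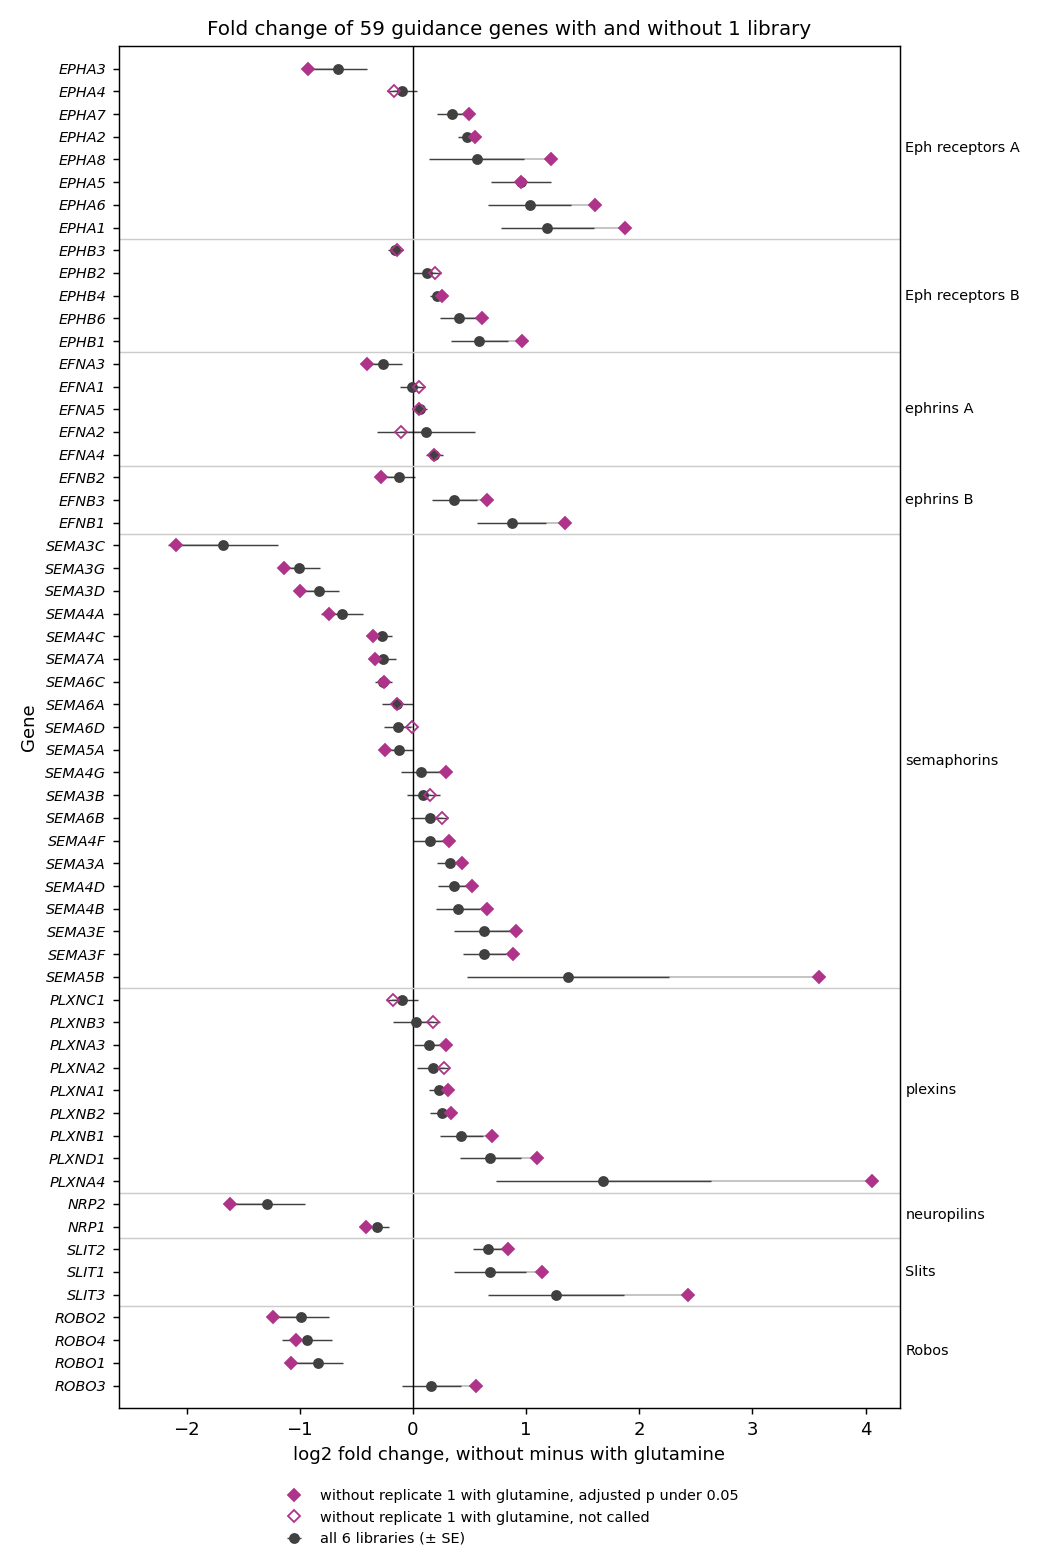
Log2 fold change, without minus with glutamine, of 59 guidance genes by family: circles with SE bars use all 6 libraries, diamonds leave out replicate 1 with glutamine (filled where the adjusted p from edgeR was under 0.05). PLXNA4, SEMA5B and SLIT3 move farthest between the fits, to 4.05, 3.59 and 2.43.

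Among the Slits and Robos, the ligand SLIT2 was higher and the receptors ROBO1 and ROBO2 were lower without glutamine, beyond the range of the other group. SLIT2 (ENSG00000145147, chromosome 4, 20253260 to 20620561, plus strand), the Slit best known in the kidney, measured 91.4, 65.6 and 67.9 CPM in the glutamine libraries, here and below in the order of replicates 1, 2 and 3, against 114, 119.8 and 123 CPM in those lacking it. The 2 sets of values did not overlap, and replicate 1 with glutamine was the highest of its group. The log2 fold change was 0.67 with an SE of 0.13 and an adjusted p of 0.0689 by edgeR, and 0.84 without that replicate (edgeR adjusted p 1.44e-05). SLIT1 was at 122, 57.6 and 58.7 CPM with glutamine and 161, 119 and 103 without, a log2 fold change of 0.68 (edgeR adjusted p 0.195). SLIT3 was at 87.9, 18.8 and 18.4 CPM with and 86.1, 91.6 and 122 without (edgeR adjusted p 0.204). For both genes replicate 1 with glutamine fell inside the range of the libraries without glutamine, so the groups overlap. Leaving that replicate out gave log2 fold changes of 1.14 for SLIT1 and 2.43 for SLIT3, both called by edgeR (adjusted p 0.000394 and 1.95e-06).

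ROBO1 and ROBO2 are the main Slit receptors outside blood vessels. ROBO1 was at 391, 738 and 708 CPM with glutamine and 355, 322 and 350.2 without, a log2 fold change of -0.84 with an SE of 0.22 and an adjusted p of 0.0815 by edgeR. ROBO2 was at 38.5, 77.9 and 70.9 CPM with and 32.9, 29.1 and 32.5 without, a log2 fold change of -0.99 with an SE of 0.24 and an adjusted p of 0.0748 by edgeR. In both receptors replicate 1 with glutamine was the lowest of its group yet above every library without glutamine. Without it the log2 fold changes were -1.07 and -1.24, both called by edgeR (adjusted p 2.93e-06 and 3.2e-06). The 2 genes are neighbours on chromosome 3 in GENCODE 29 on GRCh38, ROBO2 at 75906695 to 77649964 on the plus strand and ROBO1 at 78597240 to 79767815 on the minus strand, with 947276 bases between them.

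The other 2 Robos differ in role. ROBO4, which is known from blood vessels, was low, at 0.542, 0.691 and 0.662 CPM with glutamine and 0.302, 0.383 and 0.306 without, and its groups did not overlap (log2 fold change -0.93, edgeR adjusted p 0.0724, and -1.03 at 0.00716 without replicate 1 with glutamine). The 6 endothelial markers checked summed to 15.9, 13.2 and 11.4 CPM with glutamine and 14.9, 16.3 and 16.9 without, with 3 lower and 1 higher without overlap and none under 1 CPM in every library. Lower were PECAM1 (0.592 to 1.14 CPM with, 0.230 to 0.331 without) and CDH5 (1.22 to 1.77 with, 0.384 to 0.624 without). TIE1 was lower too, at 5.74 to 6.45 with and 4.21 to 5.36 without. ESAM was higher, at 4.65, 1.10 and 0.713 with and 6.02, 6.97 and 5.88 without, while TEK and VWF overlapped. The part of these markers in the ROBO4 values was not tested, and 16.9% of ROBO4's exon length lies opposite exons of other genes. ROBO3, known for steering axons across the midline, lies next to ROBO4 on chromosome 11, and the ends of the 2 genes face each other 2221 bases apart on opposite strands. It was at 14.3, 7.95 and 6.95 CPM with and 10.9, 11.8 and 10.1 without. Its log2 fold change was 0.16 with all libraries (edgeR adjusted p 0.699), 0.56 without replicate 1 with glutamine (edgeR adjusted p 0.00311) and -0.031 without replicate 3 with glutamine, so its direction depended on the libraries used. Summed over each family in CPM per kb, the Slits were at 29, 14.4 and 14.7 with glutamine and 35.4, 31.9 and 32.5 without, and the Robos at 40.4, 73.7 and 70.5 with and 36.2, 33.1 and 35.6 without. The Robo total was above the Slit total in each of the 6 libraries. The gap was widest in replicates 2 and 3 with glutamine and narrowest in the 3 libraries without.

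**Figure D3:**
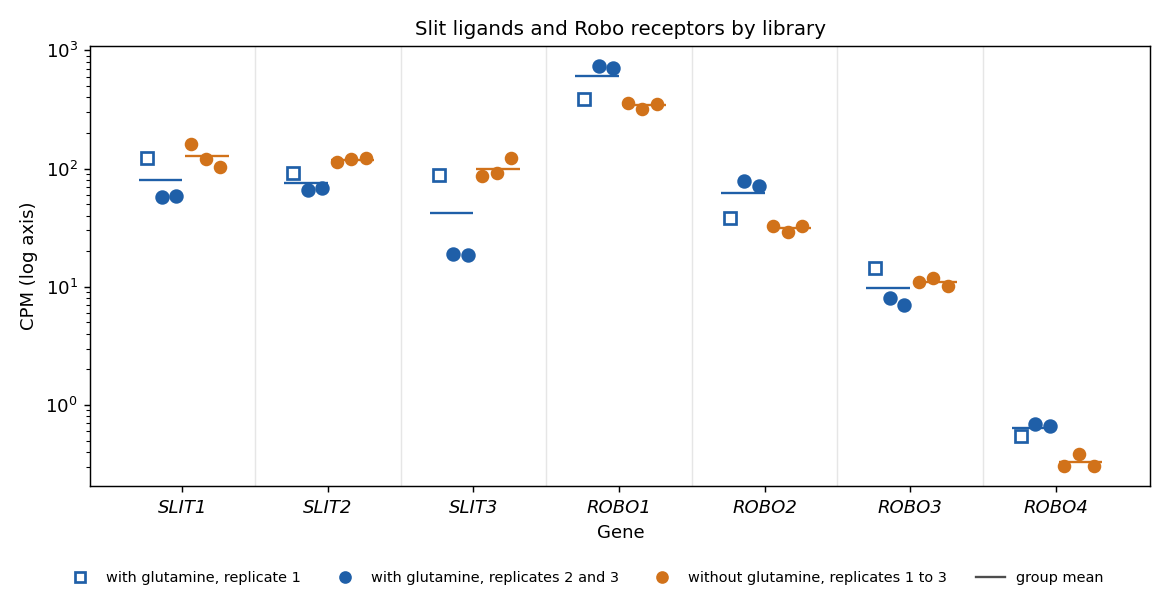
CPM of each Slit and Robo gene in each library on a log axis: open squares are replicate 1 with glutamine, filled blue circles replicates 2 and 3 with glutamine, orange circles the libraries without, lines the group means. SLIT2 lies higher and ROBO1, ROBO2 and ROBO4 lower without glutamine with no overlap, while the open square of SLIT1 and SLIT3 lies among the orange circles.

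Secreted class 3 semaphorins differed in both directions: SEMA3C, SEMA3D and SEMA3G were lower without glutamine, and SEMA3A, SEMA3E and SEMA3F higher. SEMA3C (ENSG00000075223, chromosome 7, 80742538 to 80922359, minus strand), the semaphorin with the highest mean level per kb over the 6 libraries, was at 98.1, 406 and 406 CPM with glutamine and 79.8, 100.3 and 105 without. Replicates 2 and 3 with glutamine stood far above the rest, and replicate 1 fell inside the range of the libraries without. In that replicate and in the 3 libraries without glutamine SEMA3F was above SEMA3C per kb, at 24.8 against 15.6 CPM per kb in the former and 29 ± 2.96 against 15.1 ± 2.12 in the latter (SD, n = 3). The log2 fold change was -1.68 with an SE of 0.48 and an adjusted p of 0.0888 by edgeR and -2.09 without that replicate (edgeR adjusted p 6.13e-07). SEMA3D was at 95.5, 156 and 135 CPM with and 73.5, 66.6 and 77.5 without, and SEMA3G, which acts through NRP2, at 7.79, 11.6 and 9.86 with and 5.65, 4.76 and 4.1 without. Neither gene's groups overlapped. Their log2 fold changes were -0.83 (SE 0.17) and -1.01 (SE 0.19), at edgeR adjusted p of 0.0695 and 0.068. Leaving out replicate 1 with glutamine gave -1.0 and -1.14, both called (edgeR adjusted p 2.05e-05 and 0.000169).

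SEMA3F, whose preferred receptor is NRP2, went the other way, at 119.9, 79.4 and 72.7 CPM with glutamine and 148, 149 and 124 without (log2 fold change 0.63, SE 0.19, edgeR adjusted p 0.0955). SEMA3A, the founding repellent of the class, was at 54.6, 43.1 and 46.2 CPM with and 60.4, 55.5 and 64.6 without (0.33, SE 0.11, edgeR adjusted p 0.112). SEMA3E, which can bind PLXND1 with no neuropilin, was low, at 1.48, 0.743 and 1.06 CPM with and 1.55, 1.97 and 1.57 without. In these 3 genes the lowest library lacking glutamine exceeded the highest that had it, and without replicate 1 with glutamine edgeR called each of them higher (adjusted p 7.68e-05, 0.00271 and 0.00817). The remaining member, SEMA3B, ran from 15.1 to 21.5 CPM with overlapping groups. SEMA3E, SEMA3A and SEMA3D follow each other on chromosome 7, all on the minus strand, with 306664 bases between the first pair and 502829 between the next, so genes higher and lower without glutamine lie side by side. Summed per kb, the class was at 63, 110.4 and 106 CPM per kb with glutamine and 64, 65.1 and 62.4 without, so that replicate 1 with glutamine again sat with the libraries without.

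The neuropilins, co-receptors that class 3 semaphorins share with vascular endothelial growth factor, were both lower without glutamine. NRP2 (ENSG00000118257, chromosome 2, 205681990 to 205798133, plus strand) was at 109, 279 and 281 CPM with glutamine and 105, 81.3 and 87 without, a log2 fold change of -1.29 with an SE of 0.34 and an adjusted p of 0.0806 by edgeR. Its groups did not overlap, but replicate 1 with glutamine lay just above the highest library without. NRP1 was at 380.0, 466 and 470.0 CPM with and 317, 348 and 388 without, so its groups overlapped (-0.32, SE 0.11, edgeR adjusted p 0.122). Without replicate 1 with glutamine both were called by edgeR, at -1.62 for NRP2 (adjusted p 2.27e-06) and -0.41 for NRP1 (adjusted p 0.00404).

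**Figure D4:**
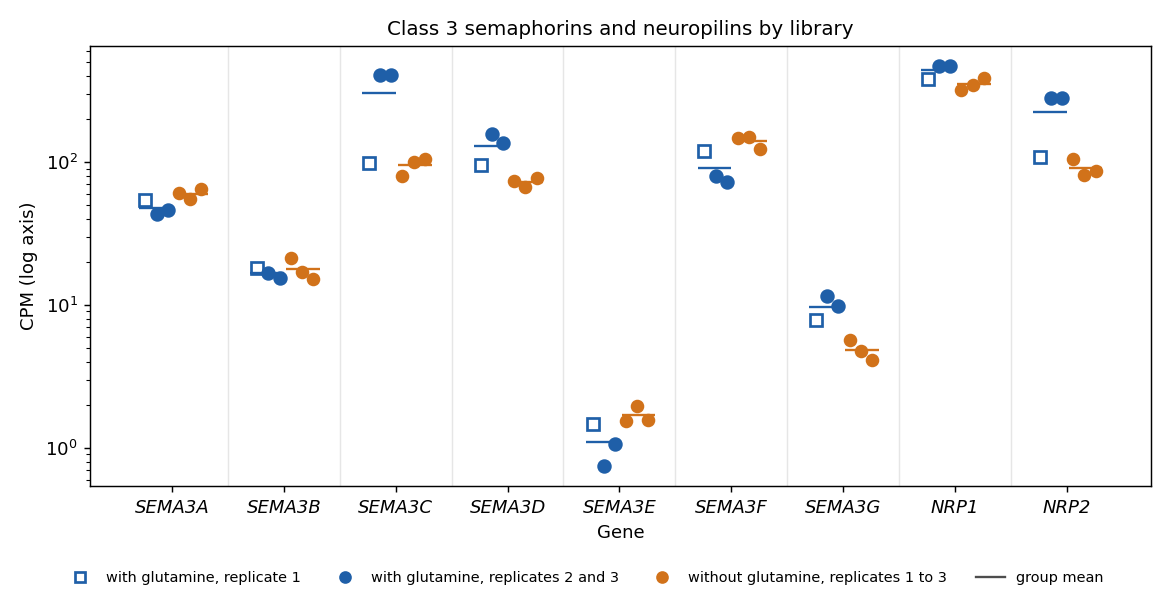
CPM of the class 3 semaphorins and the neuropilins in each library on a log axis, with the symbols of the Slit and Robo plot. SEMA3D, SEMA3G and NRP2 lie lower and SEMA3A, SEMA3E and SEMA3F higher without glutamine with no overlap, and the open square of SEMA3C lies among the orange circles.

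The 250 bases before the RefSeq start (GRCh38.p14) of SEMA3C, SEMA3F and NRP2 are shown for their group means. SEMA3C and its receptor gene NRP2 had lower means without glutamine while SEMA3F, a ligand of the same receptor, had a higher one. Capitals mark GGGCGG (GC box) and TGATGNAA (the core of elements bound by the stress factor ATF4), each on either strand.
SEMA3C: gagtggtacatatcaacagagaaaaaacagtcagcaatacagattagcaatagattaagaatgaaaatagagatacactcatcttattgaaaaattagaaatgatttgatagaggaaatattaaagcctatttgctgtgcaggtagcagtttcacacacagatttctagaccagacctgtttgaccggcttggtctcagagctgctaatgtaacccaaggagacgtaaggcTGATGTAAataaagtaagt
SEMA3F: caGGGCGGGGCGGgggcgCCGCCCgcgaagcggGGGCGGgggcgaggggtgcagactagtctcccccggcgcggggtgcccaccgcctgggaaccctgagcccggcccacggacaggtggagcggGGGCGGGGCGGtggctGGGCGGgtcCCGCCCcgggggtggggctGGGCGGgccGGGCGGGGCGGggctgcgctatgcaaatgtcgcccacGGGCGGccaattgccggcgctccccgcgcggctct
NRP2: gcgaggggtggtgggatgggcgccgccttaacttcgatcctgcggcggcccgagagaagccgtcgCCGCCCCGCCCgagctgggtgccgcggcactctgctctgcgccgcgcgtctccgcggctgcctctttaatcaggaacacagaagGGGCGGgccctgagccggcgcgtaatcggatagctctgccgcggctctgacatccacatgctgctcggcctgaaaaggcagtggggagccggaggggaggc
They lie at chr7:80922390-80922639 on the minus strand for SEMA3C, at chr3:50154808-50155057 on the plus strand for SEMA3F and at chr2:205682251-205682500 on the plus strand for NRP2, each written 5′ to 3′ on the gene's strand. Within 500 bases of these starts began 1 of 9 GENCODE 29 transcripts of SEMA3C, 5 of 9 of SEMA3F and 4 of 17 of NRP2, so the windows show 1 start of several. SEMA3F held 12 GC boxes, some of them overlapping, NRP2 held 3 and SEMA3C 0. The SEMA3C window held the only TGATGNAA match among 54 member promoters, 19 bases before the start, where 3.19% of 27305 promoters of the same length hold one. GC boxes were in 41 of 54 member promoters (75.9%) and in 42.3% of all, and the members' windows were richer in G and C, at a median of 65.4% against 58.0%. The E-box CACGTG was in 7.41% of the member windows and 6.49% of all, GGAATG (the TEAD site) in 5.56% and 11.9%, and TATAAA (the TATA box) in 1.85% and 11.1%. A match describes letters and shows no binding.

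Of the 12 semaphorins of classes 4 to 7 other than SEMA5B, 3 had groups that did not overlap, where 34.2% of all genes did not. SEMA4A was at 4.56, 6.52 and 5.42 CPM with glutamine and 3.94, 3.84 and 2.9 without (-0.62, edgeR adjusted p 0.093). SEMA4C, a ligand of PLXNB2, was at 98.1, 121 and 113 CPM with and 97.5, 87.9 and 88.9 without (-0.28, edgeR adjusted p 0.118). SEMA6C, which like other class 6 members spans the membrane, was at 58.7, 59.3 and 56.7 with and 51.9, 45.6 and 48.1 without (-0.26, edgeR adjusted p 0.0877). All 3 genes were lower without glutamine with no overlap. Without replicate 1 with glutamine their log2 fold changes were -0.74, -0.35 and -0.26, each called (edgeR adjusted p 0.00385, 0.00416 and 0.025).

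SEMA5B, a membrane semaphorin with thrombospondin repeats, had 18.7, 1.59 and 1.54 CPM with glutamine against 25.5, 16 and 14.8 without. Replicates 2 and 3 with glutamine were low and replicate 1 was as high as the other group, so the groups overlap. The log2 fold change was 1.37 with an SE of 0.89 and an adjusted p of 0.328 by edgeR with all libraries and 3.59 without replicate 1 (edgeR adjusted p 7.51e-06). DESeq2 gave this gene no p-value. The groups of the other 9 semaphorins of classes 4 to 7, SEMA4B, SEMA4D, SEMA4F, SEMA4G, SEMA5A, SEMA6A, SEMA6B, SEMA6D and SEMA7A, overlapped, at levels from 11.8 CPM (SEMA4G) to 137 CPM (SEMA6A). Exons of other genes lie opposite 27.4% of SEMA4G's exon length. Of the 20 semaphorins, 4 were higher and 6 lower at an unadjusted p under 0.05 with all libraries (14.7% and 15.0% of all genes), and 8 were called in each direction without replicate 1 with glutamine (22.3% higher and 19.0% lower of all genes).

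Plexins, the signalling receptors for semaphorins, were mostly higher without glutamine, but few beyond the spread. None of the 9 was lower at an unadjusted p under 0.05 (15.0% of all genes) and 3 were higher (14.7%). PLXNA4 (ENSG00000221866, chromosome 7, 132123332 to 132648688, minus strand), a receptor for class 3 and class 6 semaphorins, was at 58.5, 4.53 and 4.14 CPM with glutamine and 73.9, 65.2 and 76.6 without. The groups did not overlap, yet replicates 2 and 3 with glutamine were far below replicate 1, which was near the other group. Its log2 fold change of 1.68 had an SE of 0.95 (edgeR adjusted p 0.268), and without replicate 1 it was 4.05, the largest among the members (edgeR adjusted p 2.57e-08). PLXND1, the SEMA3E receptor, was at 149, 76.9 and 73.4 CPM with and 179, 159 and 142 without, with overlapping groups (0.68, edgeR adjusted p 0.15, and 1.09 at 2.43e-05 without replicate 1 with glutamine). PLXNB2, the highest plexin, was at 290.4, 257 and 248 CPM with and 360.4, 289 and 303 without, also overlapping (0.26, SE 0.11, edgeR adjusted p 0.155), and without replicate 1 with glutamine its log2 fold change was 0.33 (edgeR adjusted p 0.0183). The groups of PLXNA1, PLXNA2, PLXNA3, PLXNB1, PLXNB3 and PLXNC1 overlapped, with PLXNC1, the SEMA7A receptor, at 4.17 to 5.53 CPM and PLXNB3 at 0.512 to 0.715 CPM. PLXNB3 shares 20.4% of its exon length with another gene on its strand. Without replicate 1 with glutamine 6 of the 9 plexins were called higher and 0 lower by edgeR (22.3% and 19.0% of all genes).

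Eph receptors were more often higher than lower without glutamine. EPHA2 (ENSG00000142627, chromosome 1, 16124337 to 16156087, minus strand), an epithelial Eph receptor, was at 43.5, 37 and 39.7 CPM with glutamine and 54.8, 56.9 and 56 without. Its groups were well separated, and all 6 values were close within each group, so its SE was small for the set (log2 fold change 0.48, SE 0.08, edgeR adjusted p 0.068). EPHA1 was at 4.13, 1.81 and 1.13 CPM with and 5.56, 6.0 and 4.6 without (1.19, SE 0.41, edgeR adjusted p 0.119). EPHB4, best known as the receptor of EFNB2 on veins, was at 127, 119 and 119 CPM with and 148, 141 and 136 without (0.22, edgeR adjusted p 0.0992). For these 3 receptors the lowest library lacking glutamine exceeded the highest one that had it. Leaving out replicate 1 with glutamine gave 0.55, 1.88 and 0.25, all called (edgeR adjusted p 0.000263, 7.96e-05 and 0.0138).

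EPHA5 had the same order at very low levels, 0.32, 0.32 and 0.331 CPM with and 0.709, 0.447 and 0.726 without (0.95, edgeR adjusted p 0.0834, and 0.95 at 0.0303 without replicate 1 with glutamine), and 5.44% of its exon length lies opposite exons of another gene. EPHB3 was the one Eph receptor that was lower with no overlap, at 102, 104 and 96.3 CPM with and 94.5, 87.7 and 88.6 without (-0.16, edgeR adjusted p 0.177), and it was not called without replicate 1 with glutamine (-0.14, edgeR adjusted p 0.133). EPHA3, the one Eph receptor lower at an unadjusted p under 0.05, was at 32.4, 64.1 and 65.6 CPM with and 33.4, 31.2 and 37.6 without. Replicate 1 with glutamine lay among the libraries without, and the log2 fold change went from -0.67 (edgeR adjusted p 0.141) to -0.93 (edgeR adjusted p 3.08e-05) when it was left out. EPHA6, a low receptor, was at 1.42, 0.576 and 0.573 CPM with and 1.38, 1.89 and 2.01 without, and EPHB1 at 17.6, 8.71 and 9.82 with and 19.3, 17.6 and 17.4 without. Both were higher in the libraries without glutamine and in replicate 1 with it than in the other 2 libraries. Their log2 fold changes were 1.03 and 0.59 with all libraries (edgeR adjusted p 0.125 and 0.173) and 1.61 and 0.97 without replicate 1 with glutamine (edgeR adjusted p 0.000586 and 5.04e-05). EPHA4, the highest A-class receptor, was at 154, 186 and 178 CPM with and 144, 148 and 192 without, with overlapping groups and no call in any of the fits run (-0.10, SE 0.13, edgeR adjusted p 0.635). The groups of EPHA7, EPHA8, EPHB2 and the kinase-dead EPHB6 overlapped too. Of the 13 Eph receptors tested, 7 were higher and 1 lower at an unadjusted p under 0.05 (14.7% and 15.0% of all genes), and 9 higher and 1 lower were called without replicate 1 with glutamine (22.3% and 19.0% of all genes).

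Of the ephrins, EFNB1 differed most. EFNB1 (ENSG00000090776, chromosome X, 68828997 to 68842147, plus strand), a transmembrane ephrin that binds EPHB receptors, was at 193, 91.5 and 87.2 CPM with glutamine and 266, 203 and 211 without. The groups did not overlap, with replicate 1 with glutamine nearer the other group than its own. The log2 fold change was 0.87 with an SE of 0.31 and an adjusted p of 0.122 by edgeR, and 1.35 without that replicate (edgeR adjusted p 1.66e-05). EFNB2 and EFNB3 had overlapping groups, between 99.7 and 144 CPM and between 28.0 and 48.2 CPM. Without replicate 1 with glutamine edgeR called EFNB3 higher (0.65, adjusted p 0.000246) and EFNB2 lower (-0.28, adjusted p 0.0138). Exons of other genes lie opposite 26.2% of EFNB2's exon length.

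Of the A-class ephrins, which a lipid anchor tethers to the membrane, EFNA4 and EFNA5 had groups that did not overlap. EFNA4 was at 19.3, 19 and 20.1 CPM with glutamine and 21.7, 22.5 and 22.4 without, and EFNA5 at 31.5, 32.1 and 32.1 with and 33.2, 32.4 and 34.1 without. Both were higher without glutamine with no overlap, by small amounts (0.19, SE 0.07, and 0.06, SE 0.07), and neither was called in any fit run (edgeR adjusted p 0.15 and 0.579 with all libraries). EFNA3 was at 12.7, 17.1 and 18.6 CPM with and 13.3, 15.1 and 12 without, with overlapping groups, and was called lower without replicate 1 with glutamine (edgeR adjusted p 0.0129). EFNA1 and EFNA2 overlapped between groups at 3.03 to 16.4 CPM. EFNA4, EFNA3 and EFNA1 lie in that order on chromosome 1 from 155063731 to 155134857, and 44.7% of EFNA3's and 15.0% of EFNA4's exon length is shared with other genes on the same strand, so their counts are less certain.

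**Figure D5:**
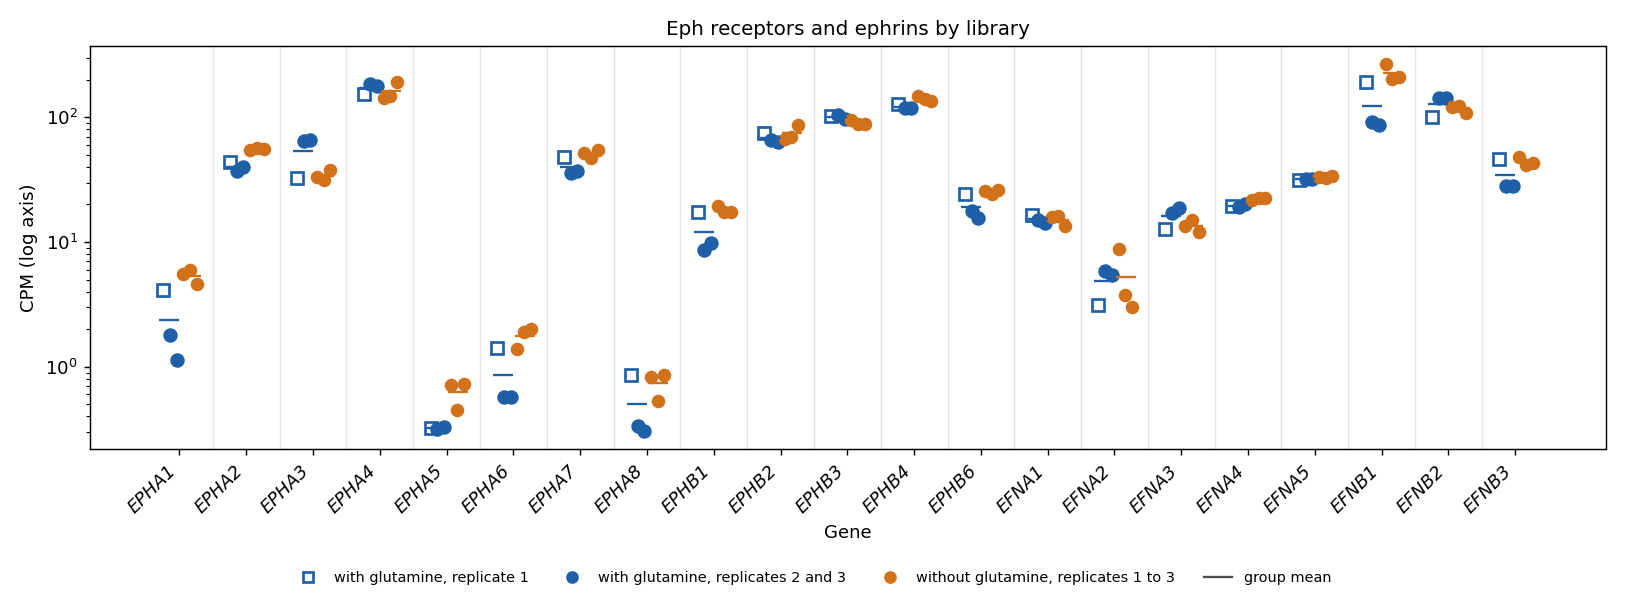
CPM of the Eph receptors (EPHA10 left out) and ephrins in each library on a log axis, with the symbols of the Slit and Robo plot. EPHA1, EPHA2, EPHA5, EPHB4, EFNA4, EFNA5 and EFNB1 lie higher and EPHB3 lower without glutamine with no overlap.

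Across the 59 members, replicate 1 with glutamine lay nearer the mean of the libraries lacking glutamine than that of the other 2 libraries of its group for 48, or 81.4%, on the log2 scale, taking the first mean as 1 and the second as 0. Over all genes tested the share was 62.0%. Where the 2 ends of that axis were over 1 apart on the log2 scale, 12 of 13 members (92.3%) and 88.7% of all genes were nearer. The exception was SEMA3G, at 0.40 of the way. Of the 22 members whose groups did not overlap, 13 (59.1%) were nearer the other group, and 42.5% of all genes without overlap were. EPHA2 (0.33), EPHB4 (0.39), ROBO4 (0.35), SEMA6C (-0.06), EFNA4 (-0.09), EPHB3 (-0.18), EPHA5 (-0.02), EFNA5 (-0.53) and SEMA3G were not.

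A wider list of 70 guidance genes outside these families, netrins and their receptors and cytoskeletal partners, was counted beside the members. With all libraries 0 of the 70 passed an adjusted p under 0.05 by edgeR, 19 were higher and 12 lower at an unadjusted p under 0.05 (14.7% and 15.0% of all genes), and DESeq2 called 16 (14.0% of all genes). Without replicate 1 with glutamine 29 were called higher and 17 lower (22.3% and 19.0% of all genes). Those with the smallest p at 1 CPM or more were ARHGEF15, RND3, NTN1, KDR and UNC5D. NTN1, the guidance cue netrin-1, was at 25.2, 116 and 119 CPM with glutamine and 14.3, 15.9 and 13.5 without (-2.57, SE 0.53, edgeR adjusted p 0.0689), and its repulsive receptor UNC5D was at 7.48, 3.73 and 4.39 CPM with and 10.4, 11.4 and 12.7 without (1.15, SE 0.25, edgeR adjusted p 0.0706). KDR, the vascular growth factor receptor that works with neuropilins, was at 24.3, 82.3 and 69.8 CPM with and 13.5, 12.7 and 17.5 without (-2.01, SE 0.42, edgeR adjusted p 0.0695). RND3, a GTPase that opposes contraction, was at 46.1, 23.2 and 30.3 CPM with and 62.8, 84 and 90.7 without (1.25, edgeR adjusted p 0.0689), and the exchange factor ARHGEF15 at 1.28, 1.69 and 1.99 with and 0.825, 0.74 and 0.624 without (-1.17, edgeR adjusted p 0.0688). None of these 5 genes had overlapping groups, and without replicate 1 with glutamine the log2 fold changes were -3.01 for NTN1, 1.51 for UNC5D, -2.38 for KDR, 1.57 for RND3 and -1.32 for ARHGEF15.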

How the data were processed

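The authors deposited raw counts per Ensembl gene and a table of size-factor-scaled counts, and only the raw counts were used. The submitters' processing notes list cutadapt, Trim Galore, FastQC, STAR 2.5.2b, DESeq2 and GRCh38. The counting program, annotation release and strand setting are not given in the sources used here. Per the labels, libraries were stranded mRNA, read as single 50-base ends. Symbols, exons and positions came from GENCODE 29, which matched 56531 of 60107 gene IDs, and the rest held 0.148% of counts.

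Counts were tested with edgeR 4.0.16 in R 4.3.3 by the quasi-likelihood test (legacy = FALSE, filterByExpr, TMM) over 22613 genes with 99.95% of the counts, with Benjamini-Hochberg adjustment and a threshold of 0.05. The SE is the absolute log2 fold change divided by the square root of F. DESeq2 1.42.0, limma 3.58.1, other scalings, filters and settings, a replicate block and leaving out each library were the alternatives. The code was tested on simulated data. Positions of a library used log2 of CPM plus 0.5. Precision is limited by 3 libraries per group.

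The members and lists were chosen with earlier results of these data known. Described by library are members with at least 1 CPM in the higher group and no overlap, up to 24 by unadjusted p, and the highest member of each family per kb. Of other pathway genes, the 5 with the smallest p were named. EFNA3, EFNB2, EFNB3, EPHA3, EPHA5, EPHA6, EPHB1, PLXND1, ROBO3, ROBO4, SEMA5B and SLIT3 lie outside this rule and were described after their values were seen. Promoters came from RefSeq, which held 54 of the 60 members.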

Additional observations from a re-analysis of the deposited data

How the results depend on the processing

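The count of 0 members called was also 0 under every other edgeR setting, scaling and filter run and under limma-voom, but DESeq2 called 14, and leaving out 1 library gave 0 to 45, with 45 from replicate 1 with glutamine. Other guidance pathway genes went from 0 to 16 with DESeq2 and from 0 to 46 with 1 library left out. Members higher at an unadjusted p under 0.05, 17 with all libraries, were 9 with upper quartile scaling, 11 with library size alone and 4 to 31 with 1 library left out. Those lower, 12 with all libraries, were 14, 12 and 8 to 16 in the same fits. Members without overlap ranged from 11 to 34 higher and from 10 to 17 lower across those 6 fits, the highest again without replicate 1 with glutamine. The 14 members at an adjusted p under 0.1 became 8 with no filter, 23 with DESeq2, 47 without replicate 1 with glutamine and 0 in the other 5 such fits. The cause of these differences was not tested.

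Deviations from the group means of libraries sharing a replicate number correlated at -0.00529, -0.0291 and 0.0681. These values show no pairing by number but cannot exclude it, with 3 libraries per group and replicate 1 with glutamine apart. With the replicate block 0 members were called, and 0 at an adjusted p under 0.1. Of 543 fold changes of 34 members over 16 alternatives, 498 kept direction and call, 44 became called (30 of them without replicate 1 with glutamine and 14 with DESeq2) and 1 reversed, ROBO3, at -0.031 with replicate 3 with glutamine left out and 0.555 without replicate 1 with glutamine. The largest shift of the overall median log2 fold change by a scaling was -0.044, with upper quartile scaling. With the longest transcript as length, 7 of 9 families kept their highest member.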
